A study of Mus musculus with 6 samples.

Results

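In poly-A RNA-seq libraries of whole mouse retina from postnatal day 2, 10 genes of BMP signalling at the cell surface were followed, 6 receptors and 4 secreted modulators, out of 20175 genes in the table. They were chosen by name: the receptors Bmpr1a, Bmpr1b, Acvr1, Bmpr2, Acvr2a and Acvr2b, and the modulators Chrdl1, Bmper, Twsg1 and Fst. All 10 had a row, and all 10 passed the minimum of a mean of 10 normalised counts, as 16064 genes did. The 3 control libraries are labelled only as control, with no allele or strain given, and the 3 mutant libraries are Zeb2 loxp/loxp αCre, in which Cre removes a floxed part of Zeb2. The αCre transgene is driven by a Pax6 enhancer that is active in progenitors of the peripheral retina, so cells of the central retina that kept Zeb2 are also in a whole-retina library. The labels do not say whether libraries of a group came from separate animals, so each p-value here reflects the spread among the 6 samples alone, part of which could be technical.

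BMPs and activins are secreted dimers that bring together type I and type II serine/threonine kinase receptors. The type II receptor phosphorylates the type I receptor, which phosphorylates receptor Smads that then act in the nucleus with Smad4. Secreted antagonists bind the ligands and keep them from the receptors. In the eye BMP signals pattern the dorsal retina and act in progenitor growth and glial differentiation. Zeb2, a DNA-binding repressor of the ZEB family, interacts with activated Smads, and the series title links its loss to BMP-Smad signalling and to the balance of interneurons and Müller glia.

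The libraries held 26041200 to 32614805 reads on genes. Markers of photoreceptors, the most numerous neurons of the mouse retina, were abundant in all 6 libraries (summed normalised count of 8 genes, 103863 to 117361.8 in controls and 108065.5 to 131058.7 in mutants). Zeb2 had 5989.7, 6448.7 and 5916.7 normalised counts in control retina and 5581.4, 4273.6 and 5049.7 in mutant retina. The mutants lay below every control, at 81.2% of the control mean, and no call was made in the fit of all genes (log2 fold change -0.31 ± 0.090 SE, limma adjusted p = 0.129). It passed on DESeq2 and without mutant library 1 (adjusted p = 0.0155 and 0.0375). By Xist and 4 genes of chromosome Y, control library 1 and mutant libraries 1 and 3 came from male tissue and the other 3 from female tissue. Mutant libraries 1 and 2 had a higher summed normalised count of 8 mesenchyme and pericyte markers than the other 4 (6778.5 and 2454.6, against 296.1 to 945.2). Of the 8 log2 fold changes 7 were above 0. Pdgfrb was below 0, with 216.6 and 168.3 in mutant libraries 1 and 2 and 175.7 to 284.3 in controls.

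None of the 10 genes passed an adjusted p of 0.05 in the limma fit across all genes, in which 184 of 16064 genes (1.15%) did. At an unadjusted p under 0.05 there were 3 of the 10, against 17.3% of all genes: Chrdl1 and Acvr2b on the lower side and Bmpr1b on the higher side. The edgeR quasi-likelihood test called 0 of the 10 (1.12% of all genes), and DESeq2 called 1, Chrdl1, as lower (of the genes to which it gave an adjusted p it called 5.66%, and 2.18% as lower). In Chrdl1, Acvr2b and Bmpr1b the groups did not overlap, which was also so for 23.2% of the genes tested, and the exact 2-sided permutation test gave p = 0.1 for each, the smallest that 3 against 3 libraries allow. The 10 genes split evenly, with 5 log2 fold changes above 0 and 5 below. Their median of -6.75e-05 stood beside a median of -0.0067 over all genes, and their median size regardless of sign was 0.12, beside 0.10 over all genes.

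**Figure D1:**
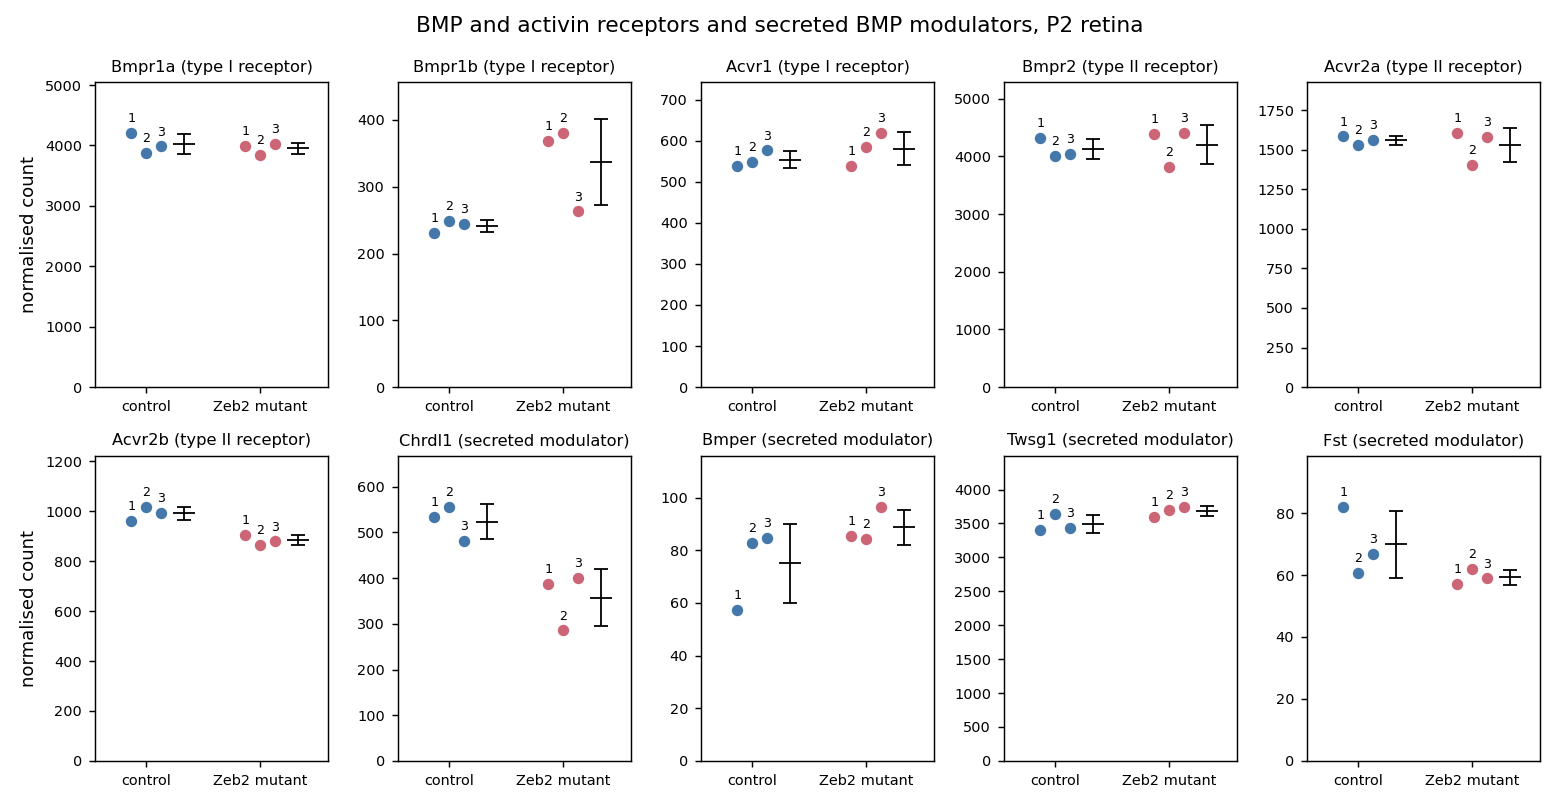
Normalised count (y axis, from 0, own scale per gene) of each of the 10 genes in 3 control libraries (blue) and 3 Zeb2 mutant libraries (red), with the library number above each point and the mean ± SD beside the points. For Chrdl1 and Acvr2b all mutant points lie under the control points, for Bmpr1b all lie over them, and the groups overlap for the other 7 genes.

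Among the 3 type I receptors followed here, Bmpr1a had the highest level per length, as given below, and its level differed little between the groups. Bmpr1a encodes the broadly expressed BMP receptor also called ALK3. Its normalised count was 4204, 3881.6 and 3983.1 in control retina and 3995.3, 3849.8 and 4020.9 in mutant retina. All 3 mutant values fell within or just below the control range. The log2 fold change was -0.024 ± 0.047 (SE), with a 95% interval of -0.13 to 0.083, so a change of the mean beyond 0.913-fold or 1.06-fold lay outside the interval (limma adjusted p = 0.841). An antisense gene, Gm17110, overlaps 290 of its 6351 exon bases, but had a mean of only 7.67 normalised counts.

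Bmpr1b, which encodes the related receptor ALK6, had 231.1, 248.6 and 244.6 normalised counts in control retina and 368.8, 380.2 and 263 in mutant retina. Mutant libraries 1 and 2 stood well above the controls, and mutant library 3 only just above them. The means were 241 ± 9.17 and 337 ± 64.6 (SD, n = 3 each), a log2 fold change of 0.46 ± 0.14 (SE; 95% interval 0.14 to 0.79; limma adjusted p = 0.150; 0.138 with edgeR and 0.0551 with DESeq2). The gene lies on chromosome 3 of GRCm38, from 141837136 to 142169425 on the minus strand.

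The higher Bmpr1b values went with other measures of the same libraries. Some astrocyte markers were high in mutant libraries 1 and 2. Gfap, the intermediate filament gene of astrocytes, had 143.8, 236 and 466.3 normalised counts in control retina and 5130.2, 3772.4 and 234.6 in mutant retina. All 7 astrocyte genes listed had a positive log2 fold change, but it was only 0.032 for Pdgfra and 0.0093 for Slc1a3. Of the 7, limma and edgeR called 0 and DESeq2 3 (5.66% of all genes). At an unadjusted limma p under 0.05 there were 4 (17.3% of all genes). Pax2, a marker of astrocyte precursors, was at 227.9 to 286.9 in controls and at 351.4 to 372.5 in all 3 mutants, mutant library 3 included. The summed level of the 7 genes was 10018.1 to 10992.4 in controls and 10844.9 to 16186.2 in mutants. Slc1a3, also listed for Müller glia, held 8087.5 to 8724.1 of it in each library. None of the 7 was at 0 in any library. Of the 8 mesenchyme and pericyte genes 7 were positive, all but Pdgfrb, and 0 were called by limma, edgeR or DESeq2. At an unadjusted limma p under 0.05 there was 1 (17.3% of all genes). Col1a1 was at 37.3 to 260.2 in control retina and 2138.7, 724.7 and 62 in mutant retina. Lum was at 0 in control library 1 and mutant library 3. With Col1a1 as a covariate the log2 fold change of Bmpr1b was 0.27 (limma adjusted p = 0.318). Without mutant libraries 1 and 2 it was 0.12, from 1 mutant library. Those were the libraries with the highest Bmpr1b values, so leaving them out lowers the fold change whatever the cause.

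The gene whose log2 level followed Bmpr1b most closely over the 6 libraries was Rn18s-rs5, a row for 18S ribosomal RNA sequence that has many near-identical copies (Pearson r = 0.994 among 13286 genes compared; 215 genes had an r above 0.9). Rn18s-rs5 stood at 63381.6, 64416.5 and 63172.2 in control retina and 84711.7, 88433.9 and 68596.6 in mutant retina. The next genes in likeness to Bmpr1b were Ost4 (r = 0.992) and Hspb11 (r = 0.988). The part of astrocyte, mesenchyme and ribosomal RNA in the Bmpr1b difference was not tested. Col1a1 and Bmpr1b were highest in the same mutant libraries, so the fit with Col1a1 as a covariate cannot separate them.

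Promoter windows of 300 bases, from 250 before to 50 after an annotated start, were searched for the letters CACCTG or CAGGTG, the E-box that ZEB factors bind, read on both strands since each is the reverse complement of the other. RefSeq (GRCm38.p6) gave 10 windows for 8 of the 10 genes, and 2 of the 10 windows held the letters, against 20.2% of all 32851 windows. They are shown with Acvr2b, the receptor whose groups did not overlap on the lower side, which has none. Capitals mark the E-box letters, which begin 156 bases before the start in 1 of 3 Bmpr1b windows and 114 and 50 bases before it in Twsg1, 5′ to 3′ along each gene. A match is a description of the sequence and not a bound site.
Bmpr1b (chr3:141982215-141982514, minus strand): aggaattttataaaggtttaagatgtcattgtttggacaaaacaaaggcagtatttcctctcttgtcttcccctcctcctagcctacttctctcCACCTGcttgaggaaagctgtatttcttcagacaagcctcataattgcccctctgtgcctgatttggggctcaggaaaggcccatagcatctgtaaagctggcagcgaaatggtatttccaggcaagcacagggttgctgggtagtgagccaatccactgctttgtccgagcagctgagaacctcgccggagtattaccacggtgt
Twsg1 (chr17:65951138-65951437, minus strand): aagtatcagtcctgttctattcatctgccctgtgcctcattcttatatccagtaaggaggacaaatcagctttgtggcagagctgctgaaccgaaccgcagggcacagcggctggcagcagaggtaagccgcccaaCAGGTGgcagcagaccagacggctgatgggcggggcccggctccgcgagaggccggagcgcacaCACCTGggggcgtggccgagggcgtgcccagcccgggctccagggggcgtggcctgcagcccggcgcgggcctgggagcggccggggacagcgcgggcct
Acvr2b (chr9:119401928-119402227, plus strand): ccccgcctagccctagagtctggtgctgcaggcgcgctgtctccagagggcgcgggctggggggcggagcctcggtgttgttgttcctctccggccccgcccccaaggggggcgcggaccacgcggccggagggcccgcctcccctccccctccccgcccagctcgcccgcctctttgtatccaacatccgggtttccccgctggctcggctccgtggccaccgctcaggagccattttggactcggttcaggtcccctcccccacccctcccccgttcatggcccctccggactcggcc

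Acvr1 encodes ALK2, a type I receptor that signals to the BMP Smads. It had 537.7, 547.6 and 576.3 normalised counts in control retina and 537.8, 584.4 and 618.5 in mutant retina. The groups overlapped, and the log2 fold change was 0.065 ± 0.076 (SE; 95% interval -0.11 to 0.24; limma adjusted p = 0.714).

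Of Bmpr2, Acvr2a and Acvr2b, the 3 type II receptors among the 10 genes, Acvr2b was the one whose groups did not overlap. Acvr2b (GRCm38 chromosome 9, 119402118 to 119434995, plus strand) encodes an activin receptor that also takes part in BMP complexes. Its normalised count was 962.6, 1017.6 and 993.5 in control retina and 906.6, 865.9 and 879.5 in mutant retina. Every mutant value lay below every control value, but the gap was small, and on average mutant retina held 89.2% of the control level. The log2 fold change was -0.16 ± 0.055 (SE; 95% interval -0.29 to -0.040; limma adjusted p = 0.171), and it stayed between -0.19 and -0.15 in the 19 alternatives run, with adjusted p from 0.148 to 0.393. The genes most alike in level over the 6 libraries were Mab21l2, a gene of early eye development (r = 0.994), Chtf8 (r = 0.993) and Emid1 (r = 0.992). Of these, Mab21l2 fell in mutant retina (log2 fold change -0.39, limma adjusted p = 0.0250).

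Bmpr2 encodes the type II receptor dedicated to BMPs. It had 4316.9, 4006.4 and 4048.3 normalised counts in control retina and 4385.2, 3811.1 and 4401.7 in mutant retina. Mutant library 2 lay below the controls and the other 2 above them. In the male libraries (control 1, mutants 1 and 3) Bmpr2 had 4316.9, 4385.2 and 4401.7. In the female libraries it had 4006.4, 4048.3 and 3811.1. The log2 fold change was 0.024 ± 0.065 (SE; 95% interval -0.12 to 0.17; limma adjusted p = 0.889). Acvr2a, the second activin type II receptor, had 1584.5, 1530.6 and 1563.8 in control retina and 1605.1, 1404.8 and 1581.3 in mutant retina. Again mutant library 2, the only female mutant, was low, and the log2 fold change was -0.030 ± 0.061 (SE, 95% interval -0.17 to 0.11, limma adjusted p = 0.849). Acvr2a had 1584.5, 1605.1 and 1581.3 in male libraries and 1530.6, 1563.8 and 1404.8 in female libraries. The part of sex in these values was not tested. Exons of Orc4 on the other strand overlap 446 of the 5686 exon bases of Acvr2a, and whether the counting separated the strands there is unknown.

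The make-up of each receptor class was computed per length within each library, from normalised counts per kb of merged exons. Bmpr1a made up 79.6% to 81.5% of the type I sum of the 3 genes in controls and 76.6% to 78.6% in mutants. Bmpr1b made up 4.77%, 5.44% and 5.21% of it in control retina and 7.71%, 8.06% and 5.48% in mutant retina. Only mutant libraries 1 and 2 stood clear of the controls in that share. The type II class was close to evenly divided, with Acvr2b at 33.4% ± 1.22 in controls and 31.0% ± 1.30 in mutants (SD, n = 3 each). The mutant and control ranges of the Acvr2b share overlapped. The ratio of the type I sum to the type II sum was 1.04 ± 0.0216 in controls and 1.10 ± 0.0556 in mutants (SD, n = 3 each).

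Chrdl1 showed the largest difference of the 10 genes. It encodes chordin-like 1, a secreted BMP antagonist that in the chick eye is known as ventroptin and opposes BMP4 in the ventral retina. The gene lies on chromosome X of GRCm38, from 143285674 to 143394262 on the minus strand. The normalised counts were 533.5, 556 and 480.6 in control retina and 386.7, 285.4 and 400.2 in mutant retina. Mutant library 2 was lowest, and the highest mutant value lay well below the lowest control value. The means were 523 ± 38.7 and 357 ± 62.7 (SD, n = 3 each), so mutant retina stood at 68.3% of control. The log2 fold change was -0.56 ± 0.13 (SE; 95% interval -0.86 to -0.26), which missed the threshold of 0.05 (limma adjusted p = 0.0841 over all genes). The unadjusted p was 0.00242, which ranked 461 among 16064 genes. It passed with DESeq2 (adjusted p = 0.00496) and, in limma, with Xist as a covariate (adjusted p = 0.0464), and it did not pass with edgeR (adjusted p = 0.0921).

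Chrdl1 is X-linked and the groups differ in sex, with 1 male and 2 female control libraries against 2 male and 1 female mutant libraries. As the groups did not overlap over all libraries, mutant values had to lie below control values within each sex as well. In female libraries the controls had 556 and 480.6 and the mutant 285.4 normalised counts. In male libraries the control had 533.5 and the mutants 386.7 and 400.2. Each sex holds 3 libraries, too few for a test, so the part of sex was not tested by this split.

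Markers of 2 interneuron classes were lower in the same libraries as Chrdl1. All 7 amacrine genes listed had negative log2 fold changes, 5 had mutant values all below the controls (11.7% of all genes) and 1, Tfap2c, fell (limma adjusted p = 0.0255; 0.218% of all genes fell). Of the 7, edgeR called 1 and DESeq2 5 (1.12% and 5.66% of all genes). Their summed normalised count was 49518.3, 48818.8 and 46169.2 in control retina and 41806.3, 33694.2 and 38881.4 in mutant retina. All 5 horizontal cell genes had mutant values all below the controls (11.7% of all genes). Limma called 2 of them as lower, Lhx1 and Onecut3 (limma adjusted p = 0.0237 and 0.0390, where 0.218% of all genes fell). Of the 5 genes, edgeR called 2 and DESeq2 4 (1.12% and 5.66% of all genes). Their sum was 5535.1 to 5724.8 in controls and 5049.8, 3986.2 and 5155.4 in mutants. As a percentage of the control mean, mutant library 2 was lowest for Chrdl1 (54.5%), for the amacrine sum (70.0%), for the horizontal cell sum (71.0%) and for Zeb2 itself (69.8%). None of these markers was at 0 in any library. Whether Chrdl1 reads come from such cells was not tested, and in whole tissue fewer cells of a type and less RNA per cell cannot be told apart. The genes most alike to Chrdl1 over the 6 libraries were Fam84b (r = 0.998), Ispd (r = 0.996) and Eif5, a translation initiation factor gene (r = 0.995), none of them called, and 522 genes had an r above 0.9.

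**Figure D2:**
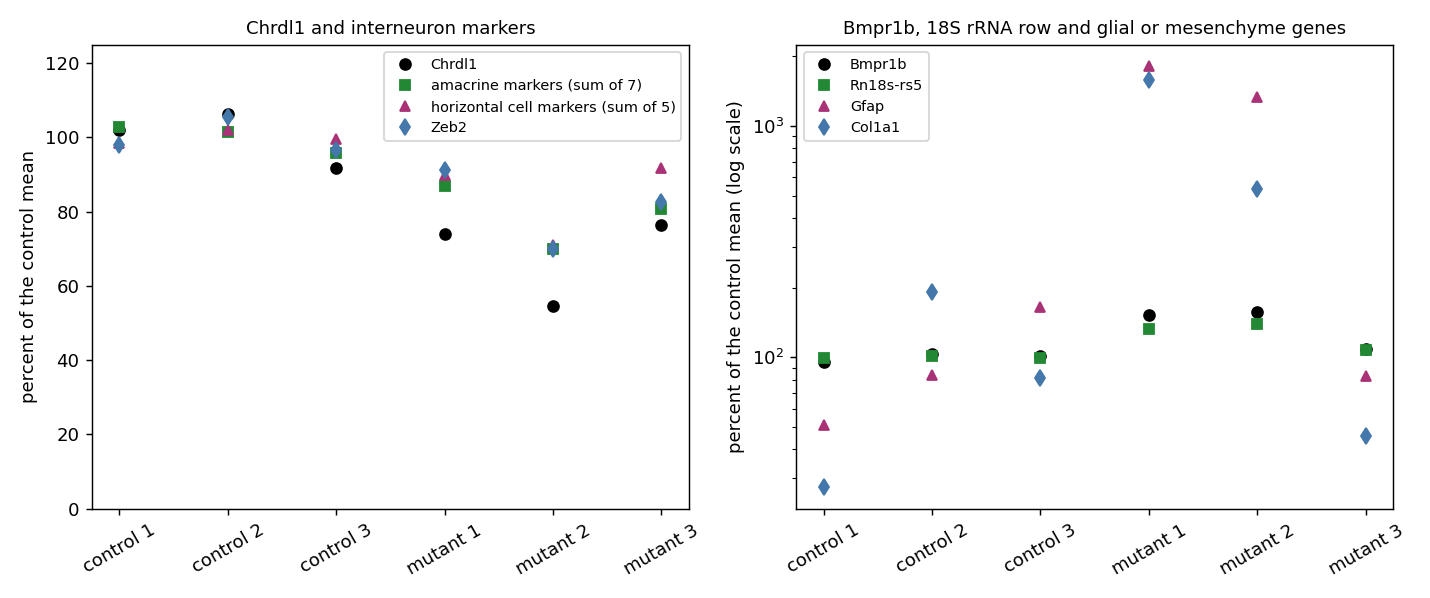
Level in each library as a percentage of the mean of the 3 controls. Left, Chrdl1, the summed amacrine and horizontal cell markers and Zeb2 (linear axis from 0), all lowest in mutant library 2; right, Bmpr1b, Rn18s-rs5, Gfap and Col1a1 (log axis), where mutant libraries 1 and 2 stand above the controls.

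Twsg1 encodes twisted gastrulation, a secreted protein that binds BMPs together with chordin. It was the most abundant of the 4 modulators, with 3402.2, 3644.5 and 3433.9 normalised counts in control retina and 3598, 3696 and 3744.6 in mutant retina. The groups overlapped through control library 2. The log2 fold change was 0.075 ± 0.046 (SE; 95% interval -0.029 to 0.18; limma adjusted p = 0.444).

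Bmper and Fst were the 2 least abundant of the 10 genes. Bmper encodes a secreted BMP-binding protein related to fly crossveinless. It had 57.5, 82.9 and 84.6 normalised counts in control retina and 85.6, 84.2 and 96.5 in mutant retina, and control library 1 alone was low. Its log2 fold change was 0.26 ± 0.19 (SE; 95% interval -0.17 to 0.69; limma adjusted p = 0.529), or 0.080 without control library 1. Fst encodes follistatin, which binds activins tightly and some BMPs. It had 82, 60.8 and 66.9 in control retina and 57.1, 61.9 and 58.9 in mutant retina, and control library 1 alone was high. Its log2 fold change was -0.22 ± 0.17 (SE; 95% interval -0.62 to 0.17; limma adjusted p = 0.559), or -0.10 without control library 1. Each gene had as few as 54 reads in a library, where counting error alone is 13.6%. At this depth and number of samples, Bmper could be up to 1.61-fold higher and Fst down to 0.651-fold within the intervals.

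**Figure D3:**
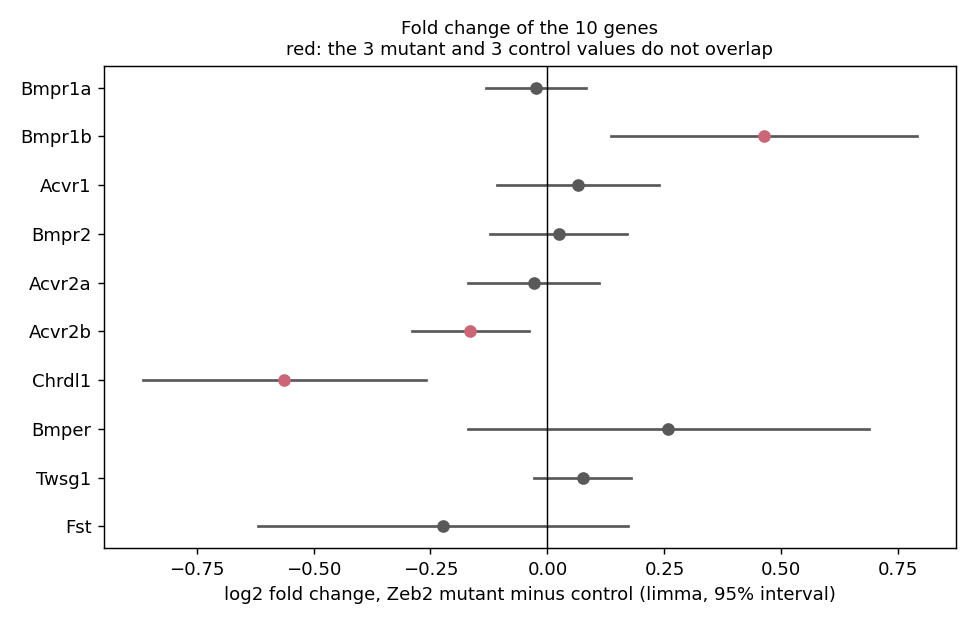
Log2 fold change of each of the 10 genes (x axis, Zeb2 mutant minus control) with its 95% interval from limma. The intervals of Chrdl1, Acvr2b and Bmpr1b (red points) do not include 0 before adjustment, and those of Bmper and Fst are the widest among the other 7.

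Compared per length, Twsg1 and Bmpr1a stood highest in control retina, with means of 678 and 633 normalised counts per kb of merged exons and control ranges of 660.2 to 707 and 611 to 662. Their ranges over the 6 libraries overlapped. The 3 type II receptors followed, Acvr2a at 274 ± 4.78 (SD, n = 3 here and below), Acvr2b at 252 ± 7.02 and Bmpr2 at 229 ± 9.37, each overlapping its neighbour over the 6 libraries. Acvr1 stood alone at 115 ± 4.15. Chrdl1 was at 77.4 ± 5.73 and Bmpr1b at 40.5 ± 1.54 in the controls, while in mutant retina they stood at 52.9 ± 9.28 and 56.6 ± 10.8, with overlapping values. Bmper and Fst were lowest, at 15.5 ± 3.14 and 15.2 ± 2.38, and could not be told apart. These levels depend on the exon length used: per kb of the longest coding transcript, Bmpr2 stood above Acvr2b and Acvr2a, Fst stood above Bmper, and the ranges of Twsg1 and Bmpr1a no longer overlapped.

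**Figure D4:**
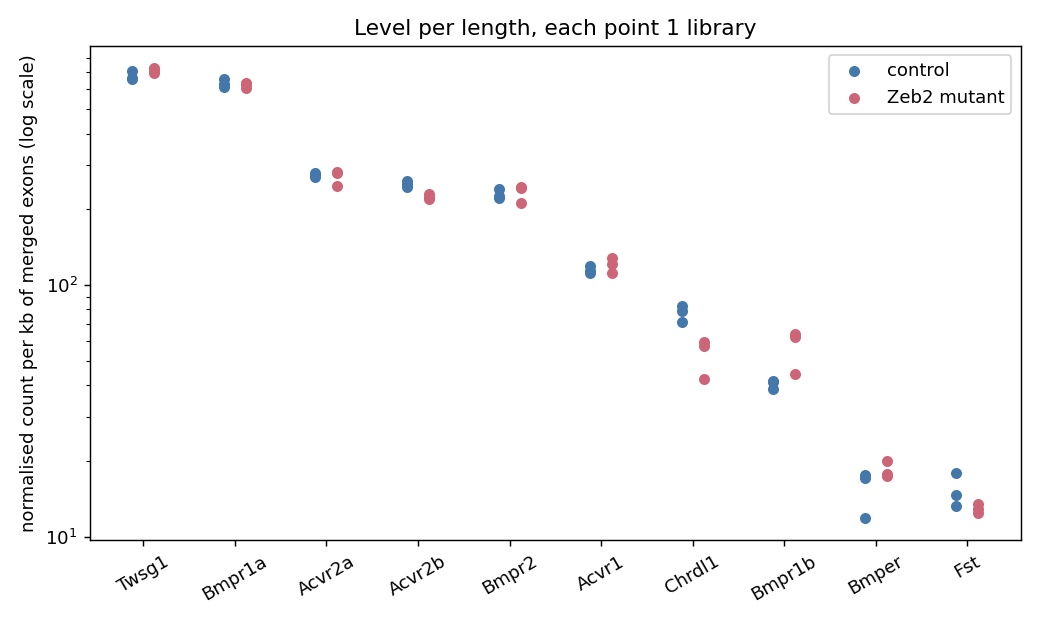
Normalised count per kb of merged exons (y axis, log scale) for each of the 10 genes, with 1 point per control (blue) or Zeb2 mutant (red) library. Genes are in order of the control mean, from 678 for Twsg1 to 15.2 for Fst; the values of Chrdl1 and Bmpr1b are apart in control retina and overlap in mutant retina.

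The other genes of the pathway were read in the same fit, from lists that share some members. Of 80 such genes outside the 10 with a row, 72 were tested, and 24 had log2 fold changes above 0 and 48 below, with a median of -0.11; 1 rose and 2 fell. Over all genes 7714 were above 0 and 8350 below, and 0.928% rose and 0.218% fell. Of 17 ligands tested limma and edgeR called 1, Bmp3, a BMP-family ligand, and DESeq2 3 (1.15%, 1.12% and 5.66% of all genes). Bmp3 fell (control 218 ± 4.77, mutant 132 ± 12.2 normalised counts, SD, n = 3, limma adjusted p = 0.0272). Gdf6 and Gdf10, named for their DESeq2 calls, had log2 fold changes of -1.09 and 0.69 (DESeq2 adjusted p = 0.0076 and 0.0482). At an unadjusted limma p under 0.05 there were 4 ligands (17.3% of all genes). Below 0 were 12 of the 17, among them Bmp2, Bmp4 and Bmp7, whose highest values were in control library 2. Of 16 BMP-Smad target genes tested limma and edgeR called 2 (1.15% and 1.12% of all genes) and DESeq2 8 (5.66%). At an unadjusted limma p under 0.05 there were 10 (17.3% of all genes). The groups did not overlap for 5 on the higher and 3 on the lower side (11.5% and 11.7% of all genes). By limma, Id4, an inhibitor of bHLH factors, rose (1312 ± 100.1 to 2638 ± 467, limma adjusted p = 0.0111) and Tbx2, a dorsal T-box gene, fell (14291 ± 281 to 11531 ± 385, limma adjusted p = 0.0237). Of the 8 Smad genes limma and edgeR called 0 and DESeq2 1 (5.66% of all genes). That was Smad3, named for this call (log2 fold change -0.38, DESeq2 adjusted p = 0.0037). At an unadjusted limma p under 0.05 there were 3 Smad genes (17.3% of all genes), 7 were below 0 and the median was -0.10. The most abundant Smad genes, Smad5 and Smad4, had log2 fold changes of -0.023 and -0.043.

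Among the type I receptors, type II receptors, co-receptors and antagonists, of which 7, 4, 10 and 24 were tested, limma and edgeR called 0, where DESeq2 called 1, 0, 1 and 2 (5.66% of all genes). At an unadjusted limma p under 0.05 there were 3, 2, 2 and 5 (17.3% of all genes). Tgfbr1 and Acvr1b, the TGF-β and activin type I receptors, had log2 fold changes of -0.15 and -0.053, and the type II receptor Tgfbr2 had 69.9 ± 15.4 and 115 ± 33.7 normalised counts in controls and mutants (SD, n = 3; limma adjusted p = 0.185). The type I receptor that DESeq2 called, and named for this call, was Acvr1c (DESeq2 adjusted p = 0.0352, limma adjusted p = 0.0759). It had low counts, 6.4, 10.5 and 3.4 in control retina and 19, 34.8 and 23.4 in mutant retina. Amhr2, the type II receptor of anti-Müllerian hormone, was below the minimum level. Of 10 co-receptors and membrane regulators 8 were below 0, with a median of -0.097. The most abundant, the netrin and RGM receptor Neo1 and the transmembrane protein Tmeff1, had -0.086 and -0.11. Tmeff2, named for its DESeq2 call, had -0.39 (DESeq2 adjusted p = 0.0138, limma adjusted p = 0.0837). Of 24 extracellular antagonists and modulators tested, the 4 described above included, 15 were below 0, with a median of -0.12. The most abundant of these outside the 10, the heparan sulfate proteoglycan Gpc1 and the follistatin-like Fstl1, had log2 fold changes of -0.14 and 0.081.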

How the data were processed

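The authors deposited normalised counts per gene, a signal rounded to 1 decimal, per the file headers. Tools named by the submitters' processing notes, with no roles, are DESeq2, HTSeq, cutadapt and STAR 2.4.2a, with build GRCm38; the sources used here name no strand setting. Within each library 100% of values lay within 0.06 of whole multiples of 1 step, so whole reads were recovered. Log2 values of the normalised count plus 1, which understate changes of low genes, were fitted in limma 3.58.1 under R 4.3.3 with its trend option, for genes with a mean of at least 10. Benjamini-Hochberg adjustment ran over all of these, with a 2-sided threshold of 0.05. edgeR 4.0.16 and DESeq2 1.42.0 ran on the recovered reads, and edgeR called 180 genes. Of these steps only the limma and edgeR fits were also run on simulated reads, with the outcome not given here. Exon lengths and coordinates came from GENCODE M21 (20122 of 20175 IDs matched). Libraries of a group differed by more than sampling noise (chi-square per degree of freedom 8.04 to 14.9). The genes, lists and alternatives were chosen with earlier results of these data known. Named genes were the 10, the called genes of each list or else its 2 most abundant, the 3 genes most alike to each of the 3 genes with the smallest adjusted p, and marker genes; genes named otherwise are said to be so. Intervals on reads cover counting error only.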

Additional observations from a re-analysis of the deposited data

How the results depend on the processing

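No gene of the 10 was called in 17 of 19 alternatives. The 2 exceptions each called 1, Chrdl1, with DESeq2 and with Xist as a covariate. The number of genes called among all genes was 184 and became 874 with DESeq2, 315 with the Xist covariate and 109 with the Col1a1 covariate, and 27 to 600 with 1 library left out. Zeb2 had a log2 fold change of -0.30 with DESeq2 and -0.40 to -0.20 with 1 library left out. The log2 fold change of Chrdl1 ranged from -0.65 to -0.38 over the alternatives and that of Bmpr1b from 0.12 to 0.63, with no change of sign. Signs turned only for genes near 0: Bmpr1a (-0.049 to 0.0083 with 1 library left out, 0.0036 with the Col1a1 covariate, 8.3e-05 without mutant libraries 1 and 2), Bmpr2 (-0.030 with the Xist covariate, -0.012 to 0.092 with 1 library left out) and Acvr2a (-0.065 to 0.031 with 1 library left out, 0.020 without mutant libraries 1 and 2). For Bmpr1a, Bmpr2 and Acvr2a every male library lay above every female library, which was seen after the values were known. The cause of the sign changes was not tested. The same-numbered libraries of the 2 groups share only a number (correlations of their deviations 0.016, 0.149 and -0.063). With the replicate block 248 genes and none of the 10 were called, and Chrdl1 had an adjusted p of 0.107. Depth limits Bmper and Fst most.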

Other observations

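Smoc1 and Fstl3, secreted modulators outside the 10 genes, were chosen after their values were seen, and neither was called by limma or edgeR. Smoc1, which encodes a secreted matrix protein known to restrain BMP signalling in frog embryos, had 1351.3, 1346 and 1275.2 normalised counts in control retina and 1783.7, 2606.5 and 1876.9 in mutant retina, a log2 fold change of 0.64 ± 0.13 (SE; limma adjusted p = 0.0560; DESeq2, which called it, adjusted p = 9.53e-06). Every mutant value lay above every control value. Fstl3, a follistatin-like gene, had 19.2, 37.8 and 23.7 in control retina and 9.5, 8.7 and 12.2 in mutant retina (limma adjusted p = 0.0933; DESeq2 adjusted p = 0.117).

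Control library 2 stood apart for several genes of the pathway. Grem1, which encodes the BMP antagonist gremlin, had 230.8 normalised counts there and 22.2 to 37.3 in the other 5 libraries, and Bmp4 had 220.3 against 18.3 to 37. The ligand genes Bmp7 and Bmp2 had 605.3 and 103.9 there, and the membrane regulator gene Crim1 had 2105.5, each the highest of the 6 libraries. The ciliary margin genes Otx1 and Wfdc1 and the lens crystallin gene Cryaa were highest in that library too, with 265.4, 275.9 and 6152.8 normalised counts. Of the other ciliary margin genes listed, Msx1 and Col9a1 were also highest there. Cdon, the most abundant of that list, was lowest there, with 4892.9 against 5430.7 to 6906.3 in the other 5 libraries. These genes were also chosen after their values were seen.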
